A study of Mus musculus with 6 samples.

Results

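Immediate early genes were examined in immortalized bone-marrow-derived macrophages (BMMs) by following 10 listed genes, *Fos*, *Fosb*, *Jun*, *Junb*, *Atf3*, *Egr1*, *Egr3*, *Ier2*, *Ier3* and *Dusp1*, across the 6 RNA-seq libraries of the series. The genes were taken by name. Each symbol matched a single Ensembl gene among the 47729 genes counted, and all 10 were among the 17406 genes with enough counts to be tested. The series holds 3 libraries of *Aif1*-/- BMMs, which lack allograft inflammatory factor 1, an actin-binding and calcium-binding protein of macrophages, and 3 libraries of WT BMMs. *Aif1* was missing from the germline of the mice that gave the *Aif1*-/- cells. Both genotypes came from male mice of 8 weeks of age on the C57BL/6J background, to which the *Aif1*-/- line had been backcrossed. The cells of both carried SV40 large T antigen as the immortalizing agent. They were grown in α-MEM with 10% FBS and 120 ng/ml CSF-1, and were used at passages 3 to 5. No acute stimulus is named for either genotype, so these are levels in growing cultures. The study describes the animals behind the libraries of a genotype as biologically independent, and the p-values refer to the spread among these 6 libraries.

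Immediate early genes are transcribed within minutes of a growth factor or stress signal, without new protein synthesis, because the factors that switch them on, among them serum response factor with its ternary complex partners and the CREB and ATF proteins, are already present and are activated by the MAP kinases ERK, JNK and p38. Their transcripts are short-lived. Many encode transcription factors, such as the FOS and JUN subunits of AP-1 and the EGR zinc finger proteins, and others encode inhibitors of the same pathway, such as the phosphatase DUSP1. In macrophages, CSF-1 and bacterial products are known inducers of these genes.

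Gene totals were 17707986 to 26486393 counts in the *Aif1*-/- libraries and 23253869 to 29314253 in the WT libraries. The targeted gene matched its labels, with 1 to 4 raw counts of *Aif1* in the *Aif1*-/- libraries and 157 to 239 in the WT libraries. Its relative *Aif1l*, which the series' design text names in place of *Aif1*, had at most 2 raw counts in the *Aif1*-/- libraries and at most 3 in the WT libraries and was not tested. All 10 macrophage markers looked at passed the filter, and their summed level was 5908 to 6002 CPM (counts scaled to library size) in the *Aif1*-/- libraries against 4435 to 5062 CPM in the WT libraries, with 6 of the 10 higher and 1 lower. Of 6 megakaryocyte and platelet markers, 4 were tested and 3 were higher, and their sum was 85.2 to 89.1 CPM in the *Aif1*-/- libraries against 39.7 to 44.6 CPM in the WT libraries, with *Gp1bb* at 0. Most of that sum was *Pf4*, at 1709 to 1799 normalized counts in the *Aif1*-/- libraries and 813 to 974 in the WT libraries. *Treml1* (log2 fold change 1.94, adjusted p = 0.000264) and *Ppbp* (4.41, adjusted p = 0.00425) were higher too. *Ppbp* had few reads, 13 to 25 raw counts in the *Aif1*-/- libraries and 0 to 3 in the WT libraries. *Itga2b* was not called (log2 fold change −0.49, adjusted p = 0.606), and *Gp9* had at most 2 raw counts in any library. The 5 endothelial markers summed to 286 to 298 CPM in the *Aif1*-/- libraries and to 307 to 362 CPM in the WT libraries, with 1 of 3 tested lower and *Emcn* at 0. Most of that sum was *Vwf*, which was not called (adjusted p = 0.449). The 5 dendritic cell markers summed to at most 4.43 CPM in any library, with neither of 2 tested called. No granulocyte, T cell, B cell, erythroid or fibroblast marker had enough counts to be tested, each of these sums stayed under 1 CPM, and *S100a9*, *Elane*, *Mpo*, *Ly6g*, *Cd3e*, *Cd3g*, *Cd79b*, *Hbb-bt*, *Dcn* and *Lum* were at 0. The part of these markers in the results below was not tested. In bulk libraries, fewer cells that express a gene and less RNA per cell cannot be told apart. The share of counted reads matched to no gene was 33.6% to 35.7% in the *Aif1*-/- libraries and 32.4%, 40.4% and 25.5% in WT replicates 1, 2 and 3, so that WT replicates 2 and 3 lay on opposite sides of the rest. WT replicate 3 was at least 2-fold below both other WT libraries for 4.91% of genes tested, none of them among the 10, against 0.546% to 1.34% in the other libraries. WT replicate 2 was the library in which several of the 10 genes stood apart.

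The 10 genes did not move together. In *Aif1*-/- BMMs *Egr1*, *Egr3*, *Junb* and *Ier2* were higher than in WT BMMs, *Ier3* and *Atf3* were lower, and *Fos*, *Fosb*, *Jun* and *Dusp1* did not pass the test (edgeR's quasi-likelihood test, Benjamini-Hochberg adjusted p under 0.05 over all genes tested). Over all 17406 genes, 18.6% were called, 8.04% higher and 10.5% lower. The median log2 fold change of the 10 genes was 0.10, against −0.0035 over all genes tested. In 7 of the 10 genes the genotypes did not overlap, with all *Aif1*-/- libraries above all WT libraries for 4 and below them for 3, whereas genotypes did not overlap for 35.7% of all genes tested, 16.5% above and 19.1% below. For 1 gene, the smallest two-sided p of an exact permutation test with 3 libraries a genotype is 0.1. Without WT replicate 2, 8 of the 10 genes were called, 6 higher and 2 lower, where 22.5% of the genes tested were called, 10.1% higher and 12.3% lower. Without WT replicate 3, 8 of the 10 were called too, 4 higher and 4 lower, *Jun* and *Dusp1* being added, where 27.6% of the genes tested were called, 13.6% higher and 14% lower.

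**Figure D1:**
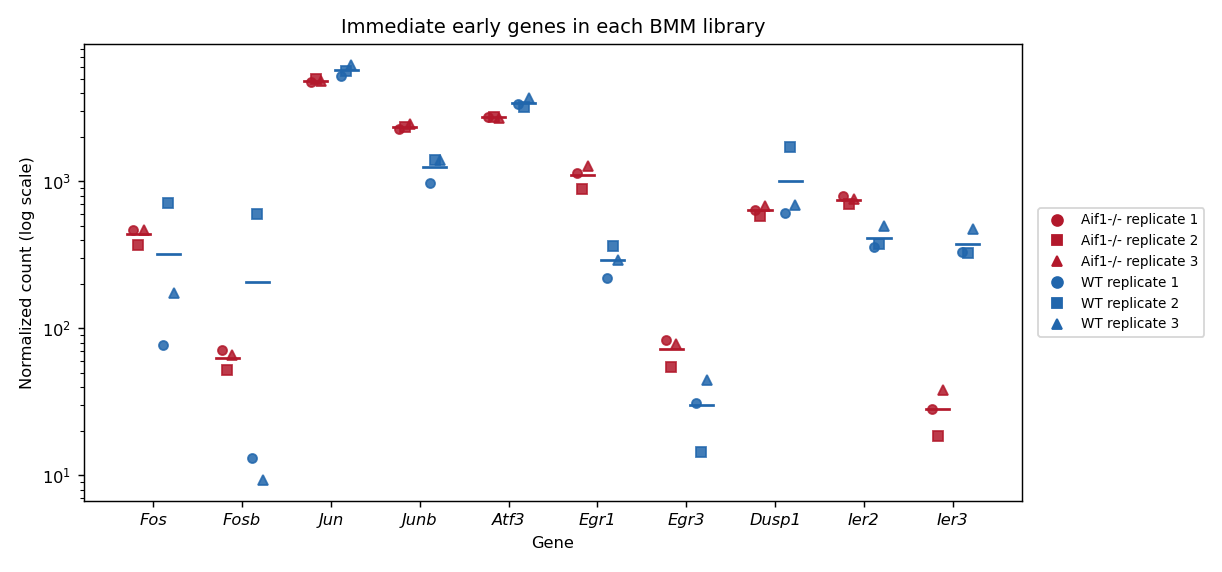
Normalized counts (y axis, log scale) of the 10 immediate early genes (x axis), with the 3 *Aif1*-/- libraries to the left of the 3 WT libraries for each gene, a point for each library and a short line for the mean of each genotype. The *Aif1*-/- points lie close together for most genes, while WT replicate 2 sits far above the other WT libraries for *Fos*, *Fosb* and *Dusp1* and below them for *Egr3*.

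Promoter sequences are shown for the 3 genes raised at least 2-fold in WT replicate 2 (*Fos*, *Fosb* and *Dusp1*). They are also shown for *Junb*, which was higher in every *Aif1*-/- library, and for *Ier3*, which fell the most of the 10. RefSeq promoters of GRCm38.p6 were found for 7 of the 10 genes, and *Egr1*, *Egr3* and *Ier2* were not among them. For *Dusp1* and *Atf3* the start used lies inside the gene coordinates given below. The outermost starts of these genes were not searched. Each line gives the 100 bases from 150 to 51 bases before the start of transcription, 5′ to 3′ on the strand of the gene. Capitals mark TGACG, or its reverse complement CGTCA, the core of the site bound by CREB and ATF proteins.
Fos (chr12:85473740-85473839, plus strand): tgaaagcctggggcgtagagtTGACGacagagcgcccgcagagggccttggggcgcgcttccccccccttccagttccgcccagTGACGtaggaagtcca
Fosb (chr7:19310096-19310195, minus strand): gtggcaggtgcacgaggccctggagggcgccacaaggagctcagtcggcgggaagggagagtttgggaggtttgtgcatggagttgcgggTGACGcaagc
Dusp1 (chr17:26508523-26508622, minus strand): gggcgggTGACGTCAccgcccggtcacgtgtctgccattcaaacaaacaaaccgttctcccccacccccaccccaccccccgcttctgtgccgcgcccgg
Junb (chr8:84978799-84978898, minus strand): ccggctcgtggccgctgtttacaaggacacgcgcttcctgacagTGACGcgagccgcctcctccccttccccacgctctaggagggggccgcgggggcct
Ier3 (chr17:35821563-35821662, plus strand): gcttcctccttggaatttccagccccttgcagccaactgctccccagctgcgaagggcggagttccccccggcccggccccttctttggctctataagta
Over the 250 bases before the start and on both strands, TGACG was present in 5 of the 7 promoters, those of *Fos*, *Fosb*, *Dusp1*, *Junb* and *Atf3*, and in 17.8% of 32851 mouse promoters of the same length. The 5 include the 3 genes raised at least 2-fold in WT replicate 2, and also *Junb* and *Atf3*, which were not. In *Dusp1* both strands overlap in the full palindrome TGACGTCA at 143 to 136 bases before the start, a form found in 1.55% of all promoters. The AP-1 site TGACTCA (4.46% of all promoters) and the CArG box bound by serum response factor (1.47%) were in none of the 7 within this window. The EGR site GCGGGGGCG was in that of *Fosb* alone, at 50 to 42 bases before the start, and in 2.57% of all promoters. A match of letters describes the sequence and was not tested as a binding site.

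Among the subunits of AP-1, the dimeric factor built from JUN and FOS family proteins, *Junb* was higher in *Aif1*-/- BMMs, *Atf3* was lower, and *Jun* lay below WT in every library without passing the test. *Junb* (ENSMUSG00000052837, chromosome 8 of GRCm38, 84974484 to 84978718) encodes a JUN family subunit that often acts as a weaker activator than JUN itself. It had 2264, 2341 and 2449 normalized counts in *Aif1*-/- replicates 1, 2 and 3, against 974, 1403 and 1394 in WT replicates 1, 2 and 3. Every *Aif1*-/- library was above every WT library, and the lowest value of all was that of WT replicate 1. The log2 fold change of *Junb* was 0.90 (standard error 0.13, adjusted p = 0.000567), and 0.99 without WT replicate 2. *Junb* shares 173 of its 2301 exon bases with *Prdx2* on the opposite strand, whose own difference did not pass the test (log2 fold change 0.14, adjusted p = 0.432), and whether reads in the shared bases were kept apart was not tested.

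*Jun* (ENSMUSG00000052684, chromosome 4, 95049034 to 95052222), which encodes the c-Jun subunit activated by JNK, had 4748, 4942 and 4811 normalized counts in the *Aif1*-/- libraries, against 5198, 5638 and 6209 in the WT libraries. The genotypes did not overlap, but the difference was small. Its log2 fold change was −0.23 (standard error 0.075), with an adjusted p of 0.0580 that misses the threshold. *Jun* was called lower under 5 of 15 other settings, with log2 fold changes of −0.29 to −0.16 over all 15. The antisense gene *Junos* overlaps 232 of the 3189 exon bases of *Jun* and had a mean of 48.0 normalized counts in *Aif1*-/- and 52.0 in WT BMMs, with no call (adjusted p = 0.891).

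*Atf3* (ENSMUSG00000026628, chromosome 1, 191170296 to 191218039) encodes a stress-inducible ATF/CREB family protein known as a repressor of inflammatory genes in macrophages. Its normalized counts were 2753, 2746 and 2711 in the *Aif1*-/- libraries and 3335, 3194 and 3714.5 in the WT libraries. The *Aif1*-/- values differed by less than those of any of the other 9 genes relative to their mean (coefficient of variation 0.821%), and all were below WT. The log2 fold change of *Atf3* was −0.32 (standard error 0.073, adjusted p = 0.0112) and −0.36 without WT replicate 2. The call was lost when any single *Aif1*-/- library was left out (adjusted p of 0.0700 to 0.0754), while the log2 fold change stayed between −0.32 and −0.31 in those fits.

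*Fos* (ENSMUSG00000021250, chromosome 12, 85473890 to 85477273), the founding FOS family gene, had 468, 370.2 and 469 normalized counts in the *Aif1*-/- libraries, against 76.4, 708 and 175 in the WT libraries. The *Aif1*-/- values lay between the WT values, above WT replicates 1 and 3 and below WT replicate 2. With all libraries *Fos* had a log2 fold change of 0.44 and a standard error of 0.58 (adjusted p = 0.694). Without WT replicate 2 it was 1.78 (standard error 0.28, adjusted p = 0.00128), and without WT replicate 1, the lowest library, it was −0.016 (adjusted p = 0.988). The direction of the *Fos* difference therefore rests on which WT libraries are taken.

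*Fosb* (ENSMUSG00000003545, chromosome 7, 19302696 to 19310051), a second FOS family gene, varied in the same libraries and by more. It had 71.5, 51.9 and 65.8 normalized counts in the *Aif1*-/- libraries and 13.1, 596 and 9.29 in the WT libraries. In WT replicate 2 *Fosb* was 53.3-fold above the mean of the other WT libraries. Its log2 fold change was −1.70 (standard error 1.15, adjusted p = 0.385) with all libraries and 2.51 (standard error 0.33, adjusted p = 0.000461) without WT replicate 2. The sign of the *Fosb* difference thus turned with a single library, and its raw counts without that library were low, at 39 to 81 in *Aif1*-/- and 11 and 13 in WT replicates 3 and 1.

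**Figure D2:**
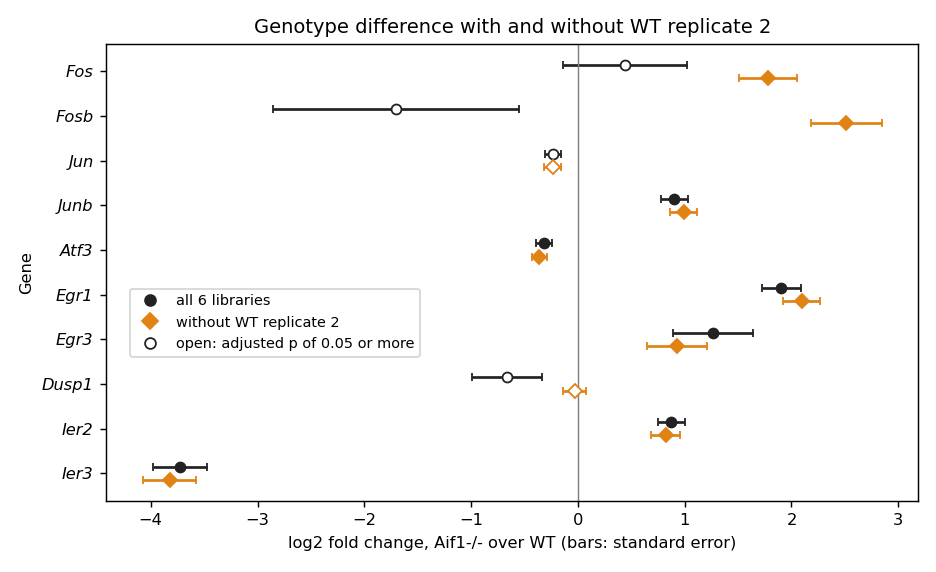
Log2 fold change of *Aif1*-/- over WT (x axis) for each of the 10 genes (y axis), with bars of 1 standard error, from the fit with all 6 libraries and from the fit without WT replicate 2. Filled symbols mark an adjusted p under 0.05. With all libraries and without that library, *Fos* has 0.44 and 1.78, *Fosb* −1.70 and 2.51, and *Dusp1* −0.66 and −0.031, while the other 7 genes move less.

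Of the zinc finger genes, *Egr1* and *Egr3* were both higher in *Aif1*-/- BMMs. *Egr1* (ENSMUSG00000038418, chromosome 18, 34859823 to 34864984) encodes early growth response 1, a target of the ERK pathway that takes part in monocyte and macrophage differentiation. It had 1137, 888 and 1277 normalized counts in the *Aif1*-/- libraries, against 221, 366 and 294 in the WT libraries. The genotypes were well apart, and WT replicate 2 was the highest of the WT libraries. On average *Egr1* was 1101 ± 197 in *Aif1*-/- and 294 ± 72.2 in WT BMMs (SD, n = 3 each), 3.74-fold higher, which is 1.90 on the log2 scale (standard error 0.18, adjusted p = 4.12e-05) and 1.74 to 2.09 over 15 other settings.

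*Egr3* (ENSMUSG00000033730, chromosome 14, 70077203 to 70082614), whose protein binds the same DNA motif as EGR1, was measured at a much lower count. Its normalized counts were 83.9, 54.6 and 77.7 in the *Aif1*-/- libraries and 31.2, 14.4 and 44.8 in the WT libraries. The groups did not overlap, but WT replicate 2 was the lowest library here, where it was the highest for *Fos*, *Fosb* and *Dusp1*. The log2 fold change of *Egr3* was 1.26 (standard error 0.37, adjusted p = 0.0404), and 0.93 (adjusted p = 0.0411) without WT replicate 2. The call was lost under 5 of 15 other settings, which were thinning to the smallest library and leaving out any *Aif1*-/- library or WT replicate 1 (adjusted p of 0.0507 to 0.170). Named after their values were seen, *Egr2*, another gene of the family, had 99 to 104 normalized counts in the *Aif1*-/- libraries against 86 to 145 in the WT libraries and did not pass (log2 fold change −0.21, adjusted p = 0.586), and *Nab2*, which encodes a corepressor that binds EGR proteins and is itself induced by them, was higher (log2 fold change 0.47, standard error 0.11, adjusted p = 0.0116).

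Of the remaining genes, *Ier2* was higher, *Ier3* was much lower and *Dusp1* did not pass the test. *Ier2* (ENSMUSG00000053560, chromosome 8, 84661331 to 84662852), an intronless gene whose small nuclear protein is known as a transcriptional coregulator, had 789, 703 and 761 normalized counts in the *Aif1*-/- libraries, against 357, 377 and 493 in the WT libraries. The lowest *Aif1*-/- library was above the highest WT library. Its log2 fold change was 0.88 (standard error 0.13, adjusted p = 0.000777) and 0.82 without WT replicate 2, close in size to that of *Junb*.

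*Ier3* (ENSMUSG00000003541, chromosome 17, 35821684 to 35822923), also called IEX-1, encodes a stress-inducible protein that affects cell survival and the duration of ERK and NF-κB signals. It had 28.3, 18.6 and 38.2 normalized counts in the *Aif1*-/- libraries, against 331, 323 and 477 in the WT libraries. It averaged 28.4 ± 9.77 in *Aif1*-/- and 377 ± 86.7 in WT BMMs (SD, n = 3 each), which is 13.2-fold lower, and no library came near the other genotype. The log2 fold change of *Ier3* was −3.73 (standard error 0.25, adjusted p = 3.37e-06), and it was between −3.96 and −3.51 over 15 other settings. *Ier3* lies 0.646 Mb from *Aif1* itself on chromosome 17. Within 1 Mb on either side of *Aif1*, 106 genes were tested, of which 5 were higher and 38 lower, where 10.5% of all genes were lower, and the part of this neighbourhood in the *Ier3* difference was not tested.

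*Dusp1* (ENSMUSG00000024190, chromosome 17, 26505590 to 26562128), which encodes a nuclear phosphatase that inactivates p38, JNK and ERK, had 639, 582 and 683 normalized counts in the *Aif1*-/- libraries, against 606, 1712 and 694 in the WT libraries. WT replicates 1 and 3 lay at the level of the *Aif1*-/- libraries, and only WT replicate 2 was apart. Its log2 fold change was −0.66 (standard error 0.33, adjusted p = 0.217) with all libraries and −0.031 (standard error 0.10, adjusted p = 0.870) without WT replicate 2. *Dusp1* was called lower under 3 of 15 other settings, among them the fit without WT replicate 3 (adjusted p = 0.0407). *Dusp1* shares 11 of its 3311 exon bases with *Ergic1* on the opposite strand, which did not pass the test (adjusted p = 0.145).

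The 3 genes raised in WT replicate 2 were compared with the rest of the transcriptome in the same library. At least 2-fold above both other libraries of its genotype were 349 of 17406 genes (2.01%) in WT replicate 2, against 0.299%, 0.437% and 0.62% in *Aif1*-/- replicates 1, 2 and 3 and 0.488% and 0.753% in WT replicates 1 and 3. *Fos*, *Fosb* and *Dusp1* were among the 349, and of the 124 other genes of the pathway that were tested only *Spry1*, a feedback inhibitor of RAS signalling with 18 raw counts in that library, was too. Most of the 349 had few counts. Among 11935 genes with a mean of at least 100 normalized counts, a limit set after the data were seen, 13 (0.109%) stood above in this way, and 6 of them were among the 10042 protein-coding genes. The mean behind this limit included WT replicate 2 itself. *Fosb*, at 9.29 to 71.5 normalized counts in the other libraries, passed the limit only through WT replicate 2, as did *Adam33*. Their place in this count and in the order below thus rests partly on the values being compared. The 3 protein-coding genes with the largest ratios were *Fosb* (45.6-fold above the higher of the other WT libraries), *Fos* (4.05-fold) and *Dusp1* (2.47-fold), and the others were *Tspoap1* (2.22-fold), *Lrrc4* (2.10-fold) and *Adam33* (2.02-fold). Among all 13 genes, *Gm37868* (3.01-fold), which is not annotated as protein-coding, came between *Fos* and *Dusp1*. *Egr1* and *Junb* were 1.42-fold and 1.19-fold the mean of the other WT libraries, while *Jun* and *Atf3* were 0.989-fold and 0.906-fold. *Egr3* was 0.380-fold that mean and at least 2-fold below both other WT libraries, as were 0.546% of genes tested in WT replicate 2. The 10 genes thus divided within WT replicate 2 as well. The part of its 40.4% of reads matched to no gene in these values was not tested.

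**Figure D3:**
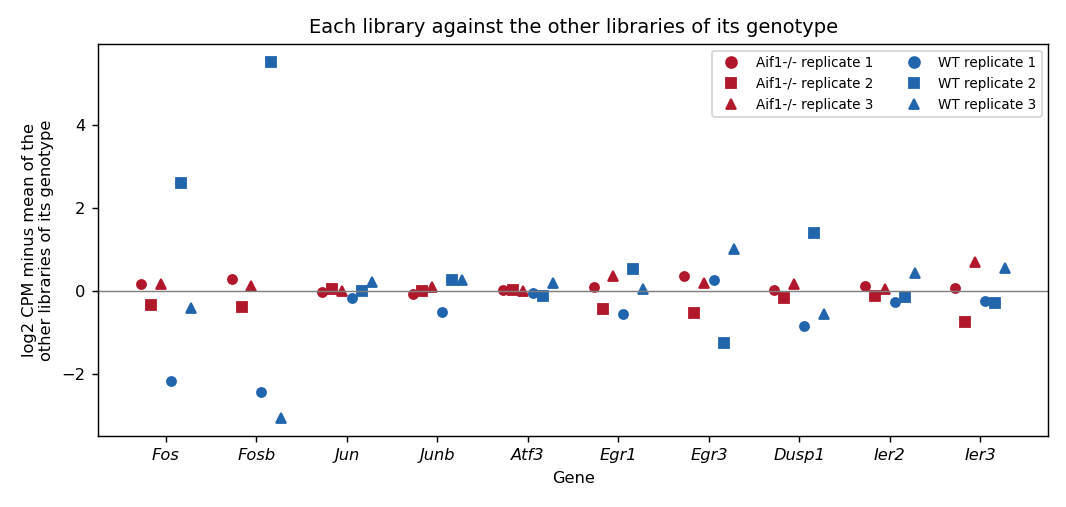
Log2 CPM of each library minus the mean log2 CPM of the other libraries of its genotype (y axis) for each of the 10 genes (x axis), with *Aif1*-/- libraries to the left of WT libraries and 0 marking no difference. WT replicate 2 reaches the top of the plot for *Fosb* (5.52), stands high for *Fos* (2.59) and *Dusp1* (1.40), and lies below 0 for *Egr3* (−1.26).

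Within a genotype, the coefficient of variation of the 10 genes was 0.821% (*Atf3*) to 34.4% (*Ier3*) in the *Aif1*-/- libraries and 7.89% (*Atf3*) to 164% (*Fosb*) in the WT libraries. It was larger in WT for 9 of the 10 genes, the exception being *Ier3*, and for 78.8% of all genes tested. *Dusp1* had 8.01% in *Aif1*-/- and 61.2% in WT BMMs, but 9.55% in WT BMMs without WT replicate 2. *Fosb* had 16.0% in *Aif1*-/- BMMs and 23.9% in WT BMMs without that library, and *Fos* had 106% in WT BMMs with it and 55.4% without it. Without WT replicate 2 the coefficient was larger in WT for the same number of the 10 genes and for 66.8% of all genes tested. That WT coefficient rests on WT replicates 1 and 3 alone, fewer libraries than the 3 behind each *Aif1*-/- value.

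Levels between genes were compared as counts per kilobase of exon scaled to the TMM library size (RPKM). In *Aif1*-/- BMMs the order was *Jun* (64.5 ± 1.32), *Atf3* (54.1 ± 0.444), *Junb* (43.5 ± 1.72), *Ier2* (19.7 to 22.1 over the libraries), *Egr1* (10.4 ± 1.87), *Dusp1* (8.16 ± 0.654), *Fos* (7.89 ± 1.03), *Ier3* (1.07 ± 0.368), *Egr3* (0.696 ± 0.149) and *Fosb* (0.430 ± 0.0687; RPKM, SD, n = 3). In WT BMMs it was *Jun* (75.8 ± 6.76), *Atf3* (67.5 ± 5.32), *Junb* (23.3 ± 4.53), *Ier3* (14.2 ± 3.26), *Dusp1* (12.9 ± 7.90), *Ier2* (11.4 ± 2.06), *Fos* (5.79 ± 6.15), *Egr1* (2.79 ± 0.686), *Fosb* (1.40 ± 2.30) and *Egr3* (0.291 ± 0.147; RPKM, SD, n = 3). *Jun*, *Atf3* and *Junb* led in both genotypes, while *Ier3* was the fourth in WT and the eighth in *Aif1*-/- BMMs and *Egr1* took the fifth place in *Aif1*-/- and the eighth in WT BMMs. Among neighbours in these orders, the ranges of *Egr1*, *Dusp1* and *Fos* overlapped in *Aif1*-/- BMMs, as did those of *Ier3* and *Egr3*. Within each *Aif1*-/- library, though, *Egr1* was above *Dusp1* and *Ier3* was above *Egr3*. In WT BMMs the range of *Jun* overlapped that of *Atf3*, though *Jun* was the higher within each library. From *Ier3* down to *Egr3* the range of every gene overlapped the next. The order of each such pair differed between WT libraries, so that this part of the WT order is not resolved. Without WT replicate 2 the WT mean of *Dusp1* was 8.36 RPKM, below *Ier2* (11.9), that of *Fos* was 2.27, below *Egr1* (2.44), and that of *Fosb* was 0.0762, below *Egr3* (0.367). With the length of the longest transcript in place of all exons, *Dusp1* came before *Egr1* in *Aif1*-/- BMMs and before *Ier3* in WT BMMs. With that length *Jun* was also below *Atf3* in WT replicate 1 (69.4 against 71.6 RPKM).

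The other genes of the pathway were followed in 8 lists, of which 124 of 133 genes were tested. In all, 23 were higher and 20 lower in *Aif1*-/- BMMs, with a median log2 fold change of −0.045. These counts stand beside 8.04% higher and 10.5% lower among all genes tested.

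Of 11 other FOS, JUN and small MAF genes tested, 3 were higher and 1 lower (median log2 fold change −0.076). *Fosl2*, a FOS family gene, rose by 0.39 on the log2 scale (2437 ± 67.3 normalized counts in *Aif1*-/- and 1860.5 ± 42.2 in WT BMMs). *Jdp2*, which encodes a repressor that dimerizes with JUN, rose by 0.64, and *Mafg* rose by 0.40, while *Mafk* fell by 0.35. Without *Aif1*-/- replicate 1 or 2 none of these genes was lower, and without WT replicate 3 there were 2. Among 10 genes of the ATF4 and CREB branch, 1 was higher and 4 were lower (median −0.17). The 4 that fell were *Ddit3*, a stress-induced bZIP gene also known as CHOP (511 ± 18.1 normalized counts in *Aif1*-/- and 1170 ± 13.1 in WT BMMs, log2 fold change −1.19, adjusted p = 2.22e-06), the ATF4 targets *Trib3* (−0.88) and *Atf5* (−0.76), and *Ppp1r15a* (−0.44), whose product GADD34 restores translation after stress. *Atf3*, itself an ATF4 target, was lower too. *Atf4*, named after its values were seen, lay below WT in every *Aif1*-/- library but did not pass the test (log2 fold change −0.13, adjusted p = 0.201). The part of ATF4 in these differences was not tested. The count of 1 higher gene became 0 without *Aif1*-/- replicate 1 or 2 or WT replicate 1, and 2 without WT replicate 3.

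Of 16 other immediate early transcription factors tested, 3 were higher and 2 lower (median 0.20). *Myc* rose by 0.92 (1815 ± 66.1 normalized counts in *Aif1*-/- and 959 ± 89.0 in WT BMMs) and the orphan receptor gene *Nr4a1* by 1.07, and the Krüppel-like factor genes *Klf4* and *Klf6* were lower (log2 fold changes of −0.75 and −0.39). The family did not move one way. *Klf10* was the other higher gene of the list (log2 fold change 0.27, adjusted p = 0.0239), and *Klf2* had 805 ± 52.5 normalized counts in *Aif1*-/- and 567 ± 147 in WT BMMs without passing the test (adjusted p = 0.0652), both named after their values were seen. Without WT replicate 2 the list had 5 higher and 4 lower genes, and without WT replicate 3 it had 6 higher. The 21 other immediate early effectors and mRNA decay factors tested held 8 higher and 5 lower genes (median 0.31). *Id1* and *Id3*, which encode inhibitors of helix-loop-helix factors, rose by 2.45 and 1.19, and *Sgk1*, a serum-inducible kinase gene, by 1.04. *Plk2*, a serum-inducible polo-like kinase gene, fell by 0.96.

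Of the 24 genes on the ERK route to serum response factor, 3 were higher and 1 lower (median −0.035), and all 4 encode kinases of the RSK and MSK families downstream of ERK. *Rps6ka1* had 3041 ± 88.1 normalized counts in *Aif1*-/- and 991 ± 76.5 in WT BMMs (log2 fold change 1.62, adjusted p = 2.90e-07), *Rps6ka3* and *Rps6ka5* rose by 0.37 and 0.34, and *Rps6ka2* fell by 0.89. Without WT replicate 3 there were 5 higher and 3 lower genes. Of the 15 genes of the JNK and p38 route, 2 were higher and 3 lower (median 0.085). The 3 that fell encode p38 isoforms, *Mapk12* (37.5 ± 9.23 normalized counts in *Aif1*-/- and 393 ± 28.4 in WT BMMs, log2 fold change −3.41), *Mapk13* (−2.14) and *Mapk11* (−1.79), and *Map3k7*, which encodes the kinase TAK1, rose by 0.38. *Mapk13* rested on few reads, 3 to 9 raw counts in the *Aif1*-/- libraries and 22 to 44 in the WT libraries. *Mapk14*, the p38 gene with the highest count, named after its values were seen, had 3386 ± 107 normalized counts in *Aif1*-/- and 3591 ± 134 in WT BMMs and did not pass the test (log2 fold change −0.085, adjusted p = 0.447). The list had 5 lower genes without WT replicate 2 and 4 higher without WT replicate 3, and 1 higher without WT replicate 1 or any *Aif1*-/- library. Among 18 other MAPK phosphatase and feedback genes tested, 3 were higher and 2 lower (median −0.093). The phosphatase genes *Dusp4* and *Dusp14* were lower (log2 fold changes of −1.06 and −1.71), and the feedback inhibitor genes *Spry2* and *Errfi1* rose by 0.78 and 1.11. Without WT replicate 3 there were 4 lower genes.

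Heat shock genes, which respond to handling and temperature, were looked at for comparison, and 2 of 11 tested were lower and none higher (median −0.085). The 2 were *Hspa1a* and *Hspa1b* (−1.64 and −1.35), near-identical copies whose reads could be split between them and which lie 0.199 and 0.212 Mb from *Aif1*. *Dnajb4* and *Dnajb1* had log2 fold changes of −0.30 (adjusted p = 0.0829) and 0.13 (adjusted p = 0.398). Without WT replicate 3, 2 of the list were higher and 4 lower.

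**Figure D4:**
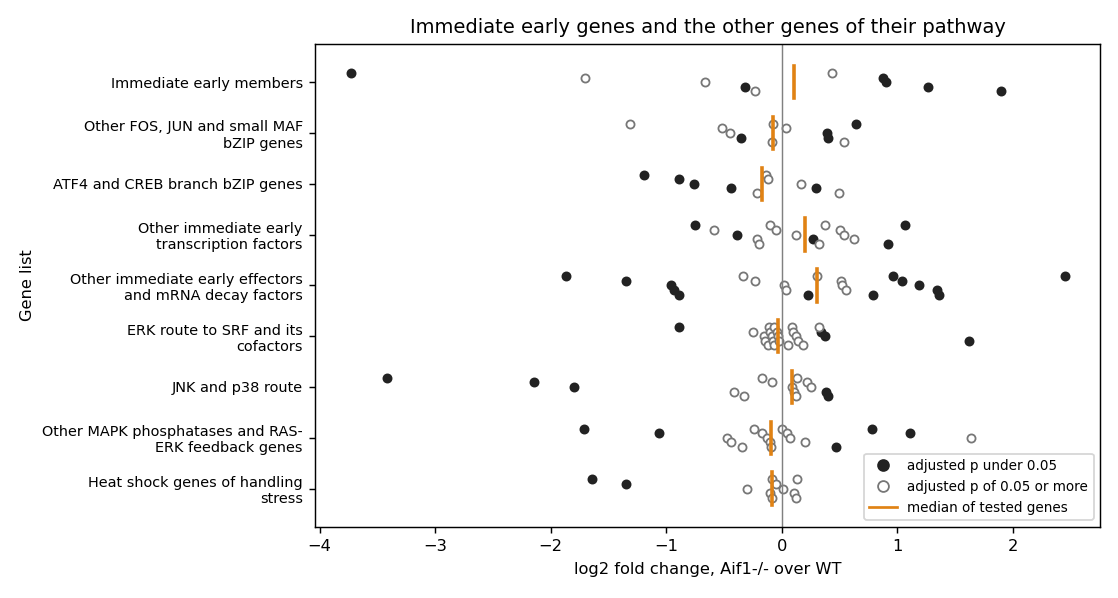
Log2 fold change of *Aif1*-/- over WT (x axis) for every tested gene of the 10 members and of the 8 pathway lists (y axis), a point for each gene, filled where the adjusted p was under 0.05, with a line at the median of each list. The medians lie between −0.17 and 0.31, and with all 6 libraries called genes stand on both sides of 0 in each list except the heat shock list, in which both called genes are on the negative side.

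The genes most like *Jun*, *Egr1* and *Fos* in log2 CPM over the 6 libraries, centred on the mean of each gene, were sought among the 12130 tested genes that averaged 2 or more on that scale. Nearest to *Jun* were *Vcl*, which encodes vinculin, and *Smurf1*, a ubiquitin ligase gene (root mean square difference of 0.030 and 0.031 on the log2 scale). Nearest to *Egr1* were *Efnb1*, an ephrin gene, and *Stab1*, a macrophage scavenger receptor gene (0.15 and 0.19). No candidate came close to *Fos*, for which the nearest were *Gm37868* and *Gm10382*, at 0.53 each. *Gm37868* had 116, 119 and 142 normalized counts in the *Aif1*-/- libraries and 53.3, 160.4 and 50.7 in the WT libraries, and was likewise raised in WT replicate 2.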

How the data were processed

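Each of the 6 libraries (3 *Aif1*-/-, 3 WT) is a ribosomal-RNA-depleted, single-end RNA-seq library. Per the methods and the processing notes, the authors used Trim Galore 0.5 for trimming, TopHat2 2.0.13 for alignment to GRCm38 with no read placed more than once, and HTSeq 0.6.1p1 for counting on Ensembl release 84. What they deposited are raw counts of 47729 genes. Counts of reads matched to no gene (25.5% to 40.4%) or ambiguous (4.55% to 7.15%) stayed out of library sizes and tests. The methods state default parameters for HTSeq, which take strand into account. Whether the deposited counts kept the strands apart was not tested.

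The counts were fitted across all genes with edgeR 4.0.16 (R 4.3.3, limma 3.58.1) on genotype, with TMM and the default expression filter, and p-values were Benjamini-Hochberg adjusted over 17406 genes. The script was tested on simulated data. Normalized counts are counts over TMM-scaled library sizes, brought to the mean library. CPM for profiles used a prior count of 2. Gene totals set the precision. Symbols, coordinates and exon lengths came from GENCODE M21 (47224 genes matched) and promoters from RefSeq (GRCm38.p6).

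The members, gene lists and tests were chosen with earlier results of these data known. Named are the 10 genes, *Aif1*, *Aif1l*, up to 4 genes of each pathway list with the smallest adjusted p, and the 2 nearest profiles of *Fos*, *Jun* and *Egr1*. Other genes were named after their values were seen. Alternatives were DESeq2 1.42.0, limma-voom, other size factors, other filters (none, or 50 counts in 3 libraries), thinning, the replicate number as a block, the share of reads matched to no gene as a covariate, and each library left out. Levels and spread in WT without WT replicate 2 were added after the data were seen.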

Additional observations from a re-analysis of the deposited data

How the results depend on the processing

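*Junb*, *Egr1*, *Ier2* and *Ier3* kept their direction and their call under all 15 alternatives. *Fos* turned to −0.016 without WT replicate 1, and *Fosb* to 0.51 with limma-voom, 0.046 with the replicate block and 2.51 without WT replicate 2. Leaving out each library in turn gave −0.016 to 1.78 for *Fos* and −2.27 to 2.51 for *Fosb*. *Dusp1* was called lower in 3 alternatives, with no filter (adjusted p = 0.0169), with the covariate (0.00547) and without WT replicate 3 (0.0407).

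With the share of reads matched to no gene as a covariate, 5521 genes were called against 3231, 2682 higher and 2839 lower, and 4 of the 10 genes were lower instead of 2. Leaving out each library in turn gave 2040 to 4889 called genes, 874 to 2404 higher and 1166 to 2485 lower, of which the 10 genes held 4 to 8, 3 to 6 higher and 1 to 4 lower. The cause was not tested. Of 240 recounts of the pathway lists, 36 moved by over 1.5 times, 9 of them without WT replicate 3, 8 with the covariate and 3 without WT replicate 2.

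Deviations from the genotype mean had correlations of 0.22, −0.106 and −0.039 over 12002 genes between libraries of replicate numbers 1, 2 and 3. Between libraries of different replicate numbers they were −0.217 to 0.195. Deviations from a mean of 3 libraries depend on each other, so these values cannot tell whether the numbers pair the libraries. The main fit treated them as unpaired. With the replicate block 2872 genes were called, 1267 higher and 1605 lower, and 6 of the 10 genes.

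*Fosb* and *Egr3*, and *Ier3* in *Aif1*-/- BMMs, rested on the fewest reads.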
